A study of Homo sapiens with 24 samples.

Results

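The transcripts of 10 abundant housekeeping genes were examined in 7 eCLIP peak lists from 293T cells, a human embryonic kidney line. The genes were ACTB and ACTG1 (cytoplasmic actins), TUBA1B (an alpha-tubulin), VIM (vimentin), GAPDH (a glycolytic enzyme), EEF1A1 and EEF2 (translation elongation factors), HSP90AB1 (a cytosolic chaperone), NCL (nucleolin) and NPM1 (nucleophosmin). They were chosen by name. Every peak on the gene's own strand that shared at least 1 nt with a window around the gene on hg19 was taken, which gave 950 of the 269336 peaks in the lists. All 10 genes held peaks in all 7 lists, from 4 IgG peaks in HSP90AB1 to 35 peaks of RBFOX2 replicate 1 in NCL. RNA abundance was not measured by the lists, so "abundant" is a name from general knowledge and not a result.

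In eCLIP, cells are irradiated with ultraviolet light, RNA is trimmed with RNase I, and an antibody recovers the RNA crosslinked to 1 protein; an input sample, taken without the antibody, shows what RNA was present in the same size range. RBFOX2 was precipitated in 2 libraries and a control IgG in 1, all at 40 U of RNase I. SLBP was precipitated in 4 libraries, replicates 1 and 2 at 40 U and replicates 3 and 4 at 5 U. Each library had its own input, all came from a single irradiated line with no change of genotype or drug treatment named, and nothing in the labels says that replicates were separate cultures, so the spread between libraries may be technical.

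RBFOX2 is a nuclear and cytoplasmic RNA-binding protein that recognizes GCAUG elements and is known for controlling alternative splicing from introns. SLBP is known for its binding to the hairpin that ends the mRNAs of replication-dependent histones. None of the 10 genes is a replication-dependent histone gene, and their mRNAs end in poly(A) tails. Fragments of very abundant mRNAs are a common background in CLIP, and the input is what this background is measured against.

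The log2 fold of a peak is the authors' value for precipitate over paired input. A peak is called above or below input here by the sign of this value. The scaling behind each list's values is not known, so 0 is a relative point. The median log2 fold over the peaks of the 10 genes was −0.90 and −1.21 in RBFOX2 replicates 1 and 2. It was 0.41, 0.18, −0.34 and 0.10 in SLBP replicates 1 to 4 and −0.02 in IgG. Both RBFOX2 libraries therefore lay below all 4 SLBP libraries and below IgG (RBFOX2 −1.05 ± 0.22, n = 2; SLBP 0.09 ± 0.31, n = 4; SD; exact two-sided permutation p = 0.133). This is the smallest p that 2 libraries against 4 allow, so no comparison of RBFOX2 with SLBP could pass 0.05.

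The genes stood low in every list, not in RBFOX2 alone. The whole lists had medians of 0.73 and 0.86 in RBFOX2, 1.57, 1.46, 0.66 and 1.17 in SLBP, and 1.31 in IgG. The genes' median minus the list's median was −1.63 and −2.07 in RBFOX2, −1.16, −1.28, −1.0 and −1.06 in SLBP and −1.33 in IgG. Between 8.60% (RBFOX2 replicate 2) and 18.2% (SLBP replicate 4) of a list's peaks had a lower fold than the genes' median. The peaks of the genes and of the lists were unlike in kind. Fold values that at least 100 peaks of a list shared made up 61.7% (SLBP replicate 4) to 79.4% (SLBP replicate 1) of the lists. They made up 15.5% (IgG) to 32.4% (SLBP replicate 3) of the genes' peaks. The part of such repeated values in the gap between genes and lists was not tested. With the list median taken off, RBFOX2 stood at −1.85 ± 0.31 (SD, n = 2) and SLBP at −1.12 ± 0.12 (SD, n = 4), a difference of −0.73 (exact permutation p = 0.133). Lists differ in how many peaks they call and in an unknown scaling, and this difference turned to 0.11 when only nucleotides covered in all 7 lists were compared, in the genes and in the whole lists.

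Peaks below input made up most of the RBFOX2 peaks in these genes. They were 163 of 203 peaks (80.3%) in replicate 1 and 138 of 189 (73.0%) in replicate 2, where 32.6% and 31.0% of the whole lists lay below input. In SLBP replicates 1 to 4 they were 38 of 119 (31.9%), 43 of 107 (40.2%), 71 of 105 (67.6%) and 39 of 98 (39.8%), beside 7.02%, 9.45%, 23.4% and 17.0% of the lists. In IgG they were 67 of 129 (51.9%), beside 10.7%. The genes' share exceeded that of the list in all 7 libraries, and the part of the lists' repeated fold values in this was not tested. Both RBFOX2 shares lay above all SLBP shares (76.7% ± 5.15, n = 2, against 44.9% ± 15.6, n = 4; SD; exact permutation p = 0.133). SLBP replicate 3, at 67.6%, was the closest to RBFOX2 and was also the SLBP list with the highest share of peaks below input.

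**Figure D1:**
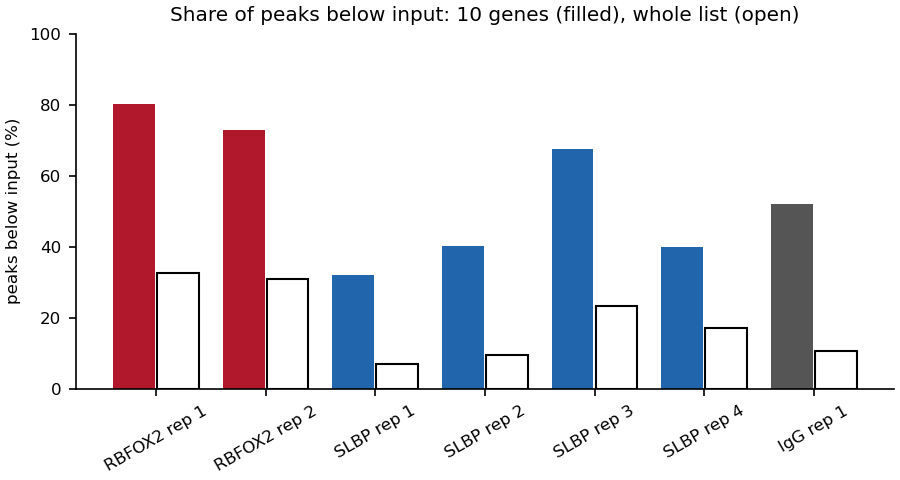
Share of peaks with a log2 fold under 0, in percent, for the peaks of the 10 genes (filled bars) and for the whole list (open bars) in each library. The filled bar is above the open bar in all 7 libraries, and the RBFOX2 bars, at 80.3% and 73.0%, are the highest.

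The 10 genes took a larger share of the short lists than of the long ones. They held 0.271% and 0.194% of the 74902 and 97594 RBFOX2 peaks. They held 0.517%, 0.583%, 0.619% and 0.968% of the 23034, 18349, 16974 and 10122 SLBP peaks, and 0.455% of the 28361 IgG peaks. RBFOX2 had the lower shares (0.232% ± 0.0547, n = 2, against 0.672% ± 0.202, n = 4; SD; exact permutation p = 0.133). RBFOX2 peaks covered 8.83% and 8.94% of the window nucleotides, SLBP peaks 5.89%, 5.55%, 4.81% and 4.43%, and IgG peaks 6.34%. Coverage was thus higher in the longer lists (8.89% ± 0.083, n = 2, against 5.17% ± 0.668, n = 4; SD; exact permutation p = 0.133), and the part of list length in this was not tested.

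Sites passing strict limits occurred in RBFOX2 libraries. A peak was called enriched when its log2 fold was at least 3, which is 8-fold, and its −log10 p at least 5. RBFOX2 replicate 1 had 8 such peaks in the 10 genes and replicate 2 had 11, which is 3.94% and 5.82% of the genes' peaks, beside 7.95% and 7.66% of the whole lists. All 4 SLBP libraries and IgG had 0 of 558 peaks together. The counts of 0 allow shares, taken as 3 peaks of the library's total, of up to 2.52%, 2.80%, 2.86% and 3.06% in SLBP replicates 1 to 4 and 2.33% in IgG. The background was 1.23%, 1.27%, 1.70% and 2.33% in the SLBP lists and 0.180% in IgG, each under its library's limit. In any single library a count of 0 therefore cannot be told apart from the list's own rate. The limit was not computed over the pooled peaks of the 4 SLBP libraries. Whether SLBP as a group lay under its lists' rates was not tested. The mean count was 9.5 ± 2.12 (SD, n = 2) in RBFOX2 and 0 in SLBP (n = 4; exact permutation p = 0.133). The RBFOX2 lists had more peaks in these genes, and the RBFOX2 shares lay under those of their own lists.

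Of the 19 enriched RBFOX2 peaks, 16 lay in the actin genes. ACTB had 5 in replicate 1 and 8 in replicate 2, ACTG1 had 1 and 2, EEF2 had 1 in each, and HSP90AB1 had 1 in replicate 1. Between the replicates, 6 of 8 (75%) in replicate 1 shared nucleotides with one in replicate 2, and 8 of 11 (72.7%) did so the other way. Over the whole lists the shares were 68.7% and 60.7%. Without ACTB the mean count was 3 per library in place of 9.5. Some peaks touch end to end, and with touching peaks merged the mean was 7.

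Along a gene, RBFOX2 signal above input lay in short stretches. Nucleotides above input in both RBFOX2 libraries, joined across gaps of up to 30 nt, formed 23 stretches with 1155 nt in 8 of the genes, and none in EEF1A1 or NCL. No SLBP or IgG peak touched 16 of the 23 (69.6%), beside 83.9% of the 26125 stretches made the same way from the whole lists, and no SLBP peak touched 18 (78.3%), beside 89.2%. Both RBFOX2 libraries were enriched at 6 (26.1%), beside 8.85%. Most of these 6 lay in ACTB and the rest in ACTG1 and EEF2, so the share rests mainly on ACTB. It was not computed without ACTB. The stretches were picked for being above input in the longer RBFOX2 lists, and the share free of other peaks was lower in the 10 genes than over the whole lists. The positions are on hg19, counted from 1; no hg19 annotation was used here, so exons, introns and UTRs are not assigned and distances are given from the 5′ edge of the gene's window.

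ACTB, on the minus strand of chromosome 7 (window 5566700 to 5570300), had the most RBFOX2 enrichment of the 10 genes. Beta-actin forms the microfilaments of non-muscle cells. The first stretch, chr7:5569982-5570069, lay 231 to 318 nt from the 5′ edge and had log2 folds of 3.73 and 3.59 in RBFOX2 replicates 1 and 2, with no peak in the SLBP or IgG lists. The next, chr7:5569796-5569947, reached 3.11 and 3.83, and an IgG peak there had 1.31. Both were enriched in both replicates.

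Downstream of these in ACTB, chr7:5569570-5569683 reached 2.69 and 3.97, so only replicate 2 was enriched, and IgG had 1.84. The stretch chr7:5569453-5569511, 789 to 847 nt from the 5′ edge, had 3.35 and 4.51 with no peak in any other list. The last, chr7:5568374-5568421, lay 1879 to 1926 nt from the 5′ edge and had 4.27 and 3.64, again with no other peak. No SLBP peak lay on any of the 5 stretches.

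Outside the 5 stretches, an enriched peak at chr7:5569955-5569967 (3.82) was called in RBFOX2 replicate 2 alone and a peak at chr7:5569319-5569338 (2.25) in replicate 1 alone. The RBFOX2 medians differed along ACTB. With the window cut into 3 equal parts, 11 and 12 RBFOX2 peaks of the 5′ part had medians of 2.25 and 3.30. The medians were −0.68 and −1.71 in the middle part and −1.13 and −1.24 in the 3′ part, over 3 or 4 peaks each. SLBP replicates 1 to 3 were also highest in the 5′ part, at 0.68, 0.52 and −0.41, but SLBP replicate 4 and IgG were not. Of the 13 enriched ACTB peaks, 11 lay in the 5′ part and 2 in the middle part. At the 5′ edge itself, chr7:5570156-5570211 was covered in all 7 lists, and RBFOX2 stood at −1.44 and −1.55 there while SLBP stood at 1.21, 0.48, −0.10 and 0.17 and IgG at 0.03.

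Because of this mixture the median over all ACTB peaks did not separate the antibodies. It was −0.53 and 1.05 in RBFOX2, −0.05, 0.06, −0.53 and 0.15 in SLBP, and 0.03 in IgG (exact permutation p = 0.533, n = 2 and 4). The replicates of RBFOX2 lay on opposite sides of 0, yet over the 649 nt covered in both their folds correlated with r = 0.96; neighbouring nucleotides share peaks, so this only describes the pair of lists. The difference of the medians, 0.35, became −0.44 without RBFOX2 replicate 2 and −1.59 over nucleotides covered in all 7 lists.

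**Figure D2:**
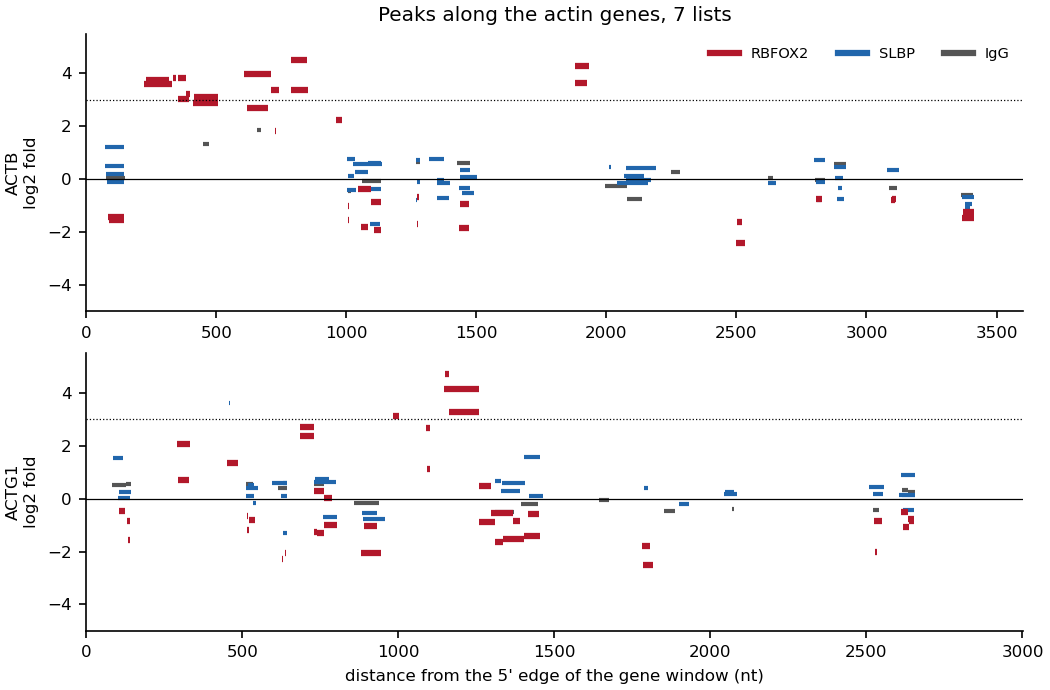
Peaks of the 7 lists along ACTB and ACTG1, each drawn as a bar from its start to its end (distance from the 5′ edge of the window, nt) at its log2 fold over input; the dotted line is the enrichment limit of 3. RBFOX2 bars above 3 lie mostly toward the 5′ edge of ACTB and in the middle of ACTG1, and SLBP and IgG bars lie mostly near 0.

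ACTG1, the gamma actin gene on the minus strand of chromosome 17 (window 79476900 to 79479900), had 1 strongly enriched place. The stretch chr17:79478642-79478751, 1149 to 1258 nt from the 5′ edge, reached 4.14 and 4.73 in RBFOX2 replicates 1 and 2 and held no SLBP or IgG peak. Its highest −log10 p, 51.12 in replicate 1 and 50.59 in replicate 2, was also the highest in the 10 genes in each library. In replicate 2 the 50.59 belonged to a 96 nt peak with a log2 fold of 3.28. The 4.73 came from a 14 nt peak beside it with a −log10 p of 8.84. A further 3 stretches were above input in both replicates without reaching the limits: chr17:79479170-79479215 (2.72 and 2.39), chr17:79479573-79479607 (2.06 and 0.69) and chr17:79478799-79478809 (1.11 and 2.69).

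The median over all ACTG1 peaks was nevertheless below input in RBFOX2. The medians were −0.51 and −1.11 in RBFOX2, 0.17, 0.53, −0.42 and 0.50 in SLBP and 0.12 in IgG, so both RBFOX2 values lay under all SLBP values (exact permutation p = 0.133, n = 2 and 4). Weighting each peak by its width gave RBFOX2 minus SLBP as 0.12 in place of −1.01. The weighted RBFOX2 folds were 0.77 and 0.02 in replicates 1 and 2, so neither was below input. A 4 nt peak of SLBP replicate 2 at chr17:79479439-79479442 had a log2 fold of 3.63 with a −log10 p of 2.21, and so missed the limits.

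TUBA1B, on the minus strand of chromosome 12 (window 49521500 to 49525400), encodes an alpha-tubulin subunit of microtubules. It held 6 stretches above input in both RBFOX2 libraries, the most of the 10 genes, but none was enriched. The highest, chr12:49524550-49524570, had 3.11 and 2.22, the former with a −log10 p of 2.17, and no other list had a peak there. The gene's medians were −0.40 and 0.63 in RBFOX2, 0.42, 0.17, −0.55 and −0.25 in SLBP and 0.22 in IgG, and the groups overlapped (exact permutation p = 0.667, n = 2 and 4). Its difference of 0.17 became −0.35 without RBFOX2 replicate 2 and −0.85 over the 195 nt covered in all 7 lists.

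VIM, on the plus strand of chromosome 10 (window 17270200 to 17279600), encodes the intermediate filament protein of mesenchymal and many cultured cells. RBFOX2 medians were −0.90 and −1.80, SLBP medians 0.64, 0.64, 0.06 and 0.44, and IgG was at 0.17. All SLBP libraries were above input and both RBFOX2 libraries below it (exact permutation p = 0.133, n = 2 and 4). A wide gap lay at chr10:17271288-17271326, where RBFOX2 had −2.03 and −2.87, SLBP 1.51, 0.57, −0.19 and 0.69 and IgG −0.32. The only VIM stretch above input in both RBFOX2 libraries, chr10:17272108-17272130, reached 0.34 and 0.37.

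GAPDH, on the plus strand of chromosome 12 (window 6643500 to 6647600), is the glycolytic enzyme often used as a loading reference. Its medians were −1.23 and −1.96 in RBFOX2, 0.35, 0.14, −0.47 and 0.07 in SLBP and −0.04 in IgG. The RBFOX2 values lay under all others (−1.60 ± 0.51, n = 2, against 0.02 ± 0.35, n = 4; SD; exact permutation p = 0.133). Peaks below input were 18 of 19 and 18 of 22 in the RBFOX2 lists. A stretch of 14 nt at chr12:6646715-6646728 was above input in both, with 1.00 and 2.48.

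The elongation factors differed from each other in SLBP and IgG. EEF1A1, on the minus strand of chromosome 6 (window 74225400 to 74230800), delivers aminoacyl-tRNA to the ribosome. Its medians were −1.34 and −1.47 in RBFOX2, −0.71, −1.13, −0.73 and −0.49 in SLBP and −1.27 in IgG, and it was the only one of the 10 genes below input in every library. RBFOX2 lay below SLBP (exact permutation p = 0.133, n = 2 and 4), and IgG lay below all SLBP values and above both RBFOX2 values. Of its 9 stretches covered in all 7 lists, 7 were below input in every library. The exceptions lay nearest the 5′ edge, at chr6:74230722-74230752 and chr6:74229759-74229779, where SLBP ran from 0.00 to 0.44, IgG had 0.48 and 0.62, and RBFOX2 was between −0.97 and −1.50.

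EEF2, on the minus strand of chromosome 19 (window 3976000 to 3985500), moves the ribosome along the mRNA. It combined low RBFOX2 medians with a single enriched place. The medians were −1.43 and −1.68 in RBFOX2, 0.35, −0.07, −0.55 and 0.26 in SLBP and −0.09 in IgG, with RBFOX2 lowest (exact permutation p = 0.133, n = 2 and 4). The stretch chr19:3982089-3982124, 3376 to 3411 nt from the 5′ edge, had 3.07 and 4.96 in RBFOX2 and no SLBP or IgG peak. The second value was the highest log2 fold of any of the 950 peaks.

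In the RBFOX2 lists EEF2 was also the gene whose replicates differed most in peak number, with 24 and 9 peaks, beside 22, 18, 14 and 16 in SLBP and 25 in IgG. Near its 3′ end, chr19:3976277-3976301 was the place where most other lists were high: SLBP had 1.55, 1.81, 0.94 and −0.39, IgG 1.09 and RBFOX2 −0.06 and −0.87. RBFOX2 and SLBP replicate 4 were the libraries below input there. The GRCh38.p14 gene table places the small nucleolar RNA SNORD37 inside EEF2; its position relative to the peaks was not determined.

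HSP90AB1, on the plus strand of chromosome 6 (window 44214800 to 44221700), encodes the constitutive cytosolic HSP90. Its medians were −0.17 and −0.76 in RBFOX2, 1.17, 0.24, 0.07 and 0.19 in SLBP and 0.23 in IgG. All SLBP libraries were above input and both RBFOX2 libraries below (exact permutation p = 0.133, n = 2 and 4), and SLBP replicate 1 stood apart from the other 3. The stretch chr6:44215169-44215191, 369 to 391 nt from the 5′ edge, had 4.11 in RBFOX2 replicate 1, enriched at a −log10 p of 5.09, and 2.28 in replicate 2. A neighbouring stretch at chr6:44215278-44215325 had 1.56 and 2.39, and neither held a SLBP or IgG peak.

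NCL, on the minus strand of chromosome 2 (window 232319400 to 232329300), encodes nucleolin, a major RNA-binding protein of the nucleolus. The RBFOX2 medians were −1.22 and −1.21, the closest pair of replicate medians among the 10 genes. Over the 1052 nt covered in both replicates, however, their folds had the lowest correlation of the 10 genes (r = 0.80). SLBP had 0.54, 0.60, 0.24 and 1.00 and IgG had 0.10. RBFOX2 minus SLBP was −1.81 (exact permutation p = 0.133, n = 2 and 4). RBFOX2 had 35 and 31 peaks in NCL, the most of any gene, and 34 and 26 of them lay below input.

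NCL held both the strongest shared depletion and a place high in all lists but RBFOX2. At chr2:232320561-232320588 RBFOX2 had −2.89 and −4.45, SLBP −2.17, −3.14, −3.54 and −3.46 and IgG −1.28, and −4.45 was the lowest fold of the 950 peaks. Every library lay below input here, and IgG was the least low. At chr2:232319937-232319979, closer to the 3′ edge, SLBP had 2.09, 1.35, 1.45 and 1.13 and IgG 0.92, while RBFOX2 had −1.05 and −1.28. The GRCh38.p14 table places SNORA75, SNORD20 and SNORD82 inside NCL; whether the depleted place lies at one of them was not determined.

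NPM1, on the plus strand of chromosome 5 (window 170814700 to 170837900), encodes nucleophosmin, a nucleolar chaperone of ribosome assembly. Its medians overlapped, with −0.56 and 0.67 in RBFOX2, −0.10, 0.91, 0.66 and 0.40 in SLBP and 0.04 in IgG (exact permutation p = 0.533, n = 2 and 4). The sign of the difference, −0.42, turned to 0.20 without RBFOX2 replicate 1 and to 0.18 with peaks weighted by width. All 3 NPM1 stretches above input in both RBFOX2 libraries lay 374 to 955 nt from the 5′ edge.

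All 3 NPM1 stretches also held a peak of SLBP replicate 1 and of IgG. At chr5:170815604-170815655 the RBFOX2 folds were 2.87 and 2.82, SLBP replicate 1 had 3.83 with a −log10 p of 2.45, and IgG had 1.73. At chr5:170815074-170815116 RBFOX2 had 2.50 and 1.57, SLBP replicates 1 and 2 had 3.05 and 2.85 and IgG had 1.19. SLBP replicates 3 and 4, at 5 U of RNase I, had no peak at any of the 3 stretches. RBFOX2, IgG and SLBP replicates 1 and 2 all received 40 U. Within SLBP, the 5 U lists were also the shorter ones, and the part of RNase I amount or of list length in this pattern was not tested.

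**Figure D3:**
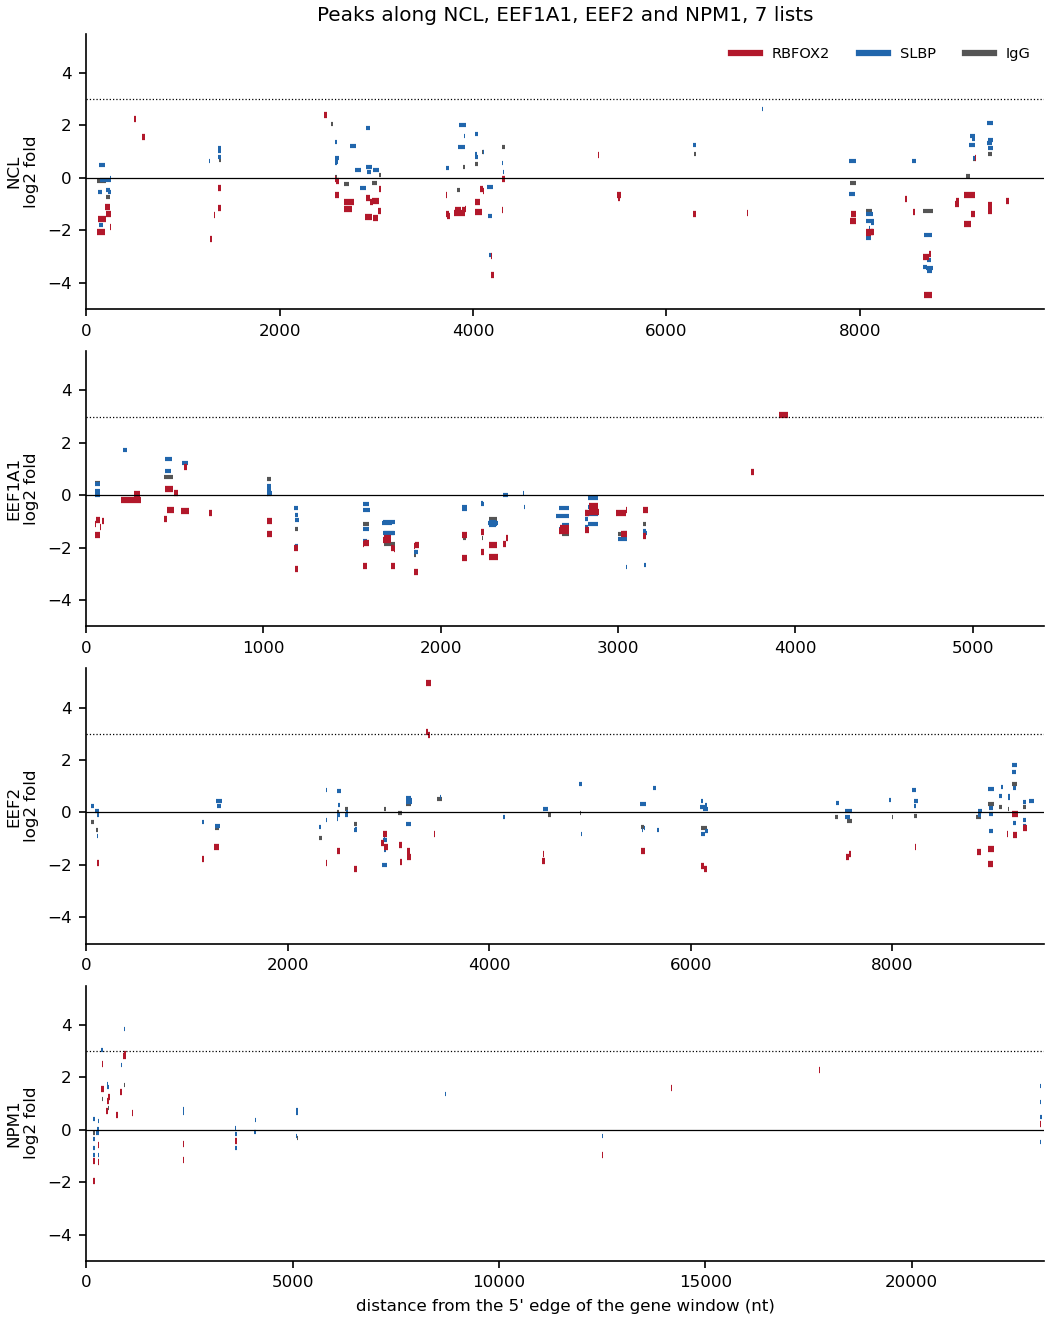
Peaks of the 7 lists along NCL, EEF1A1, EEF2 and NPM1, drawn as bars at their log2 fold over input against the distance from the 5′ edge of each window in nt; the dotted line is the limit of 3. RBFOX2 bars lie below 0 along most of NCL, EEF1A1 and EEF2, with 1 place of EEF2 at 3.07 and 4.96, and all lists are low at 8695 to 8739 nt in NCL.

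Across genes, both RBFOX2 medians lay below all 4 SLBP medians in 7 of 10 genes, above them in 0 and among them in ACTB, TUBA1B and NPM1. Loci made by joining all peaks within 1 kb showed the same order in 54.6% of 1997 cases, so a share of 7 in 10 was near the background. With each list's median taken off, the count was 4 of 10, and 40.5% of the loci. Within SLBP, replicate 3 had the lowest median in 8 of the 10 genes. IgG lay within the range of the SLBP medians in 8 genes and above both RBFOX2 medians in 7. These counts were not made over the joined loci. The whole lists had the same order: SLBP replicate 3 had the lowest SLBP list median, 0.66. The IgG list median, 1.31, lay within the SLBP range and above both RBFOX2 lists. RBFOX2 replicate 2 was lower than replicate 1 in 6 genes: ACTG1, GAPDH, EEF1A1, EEF2, HSP90AB1 and VIM.

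**Figure D4:**
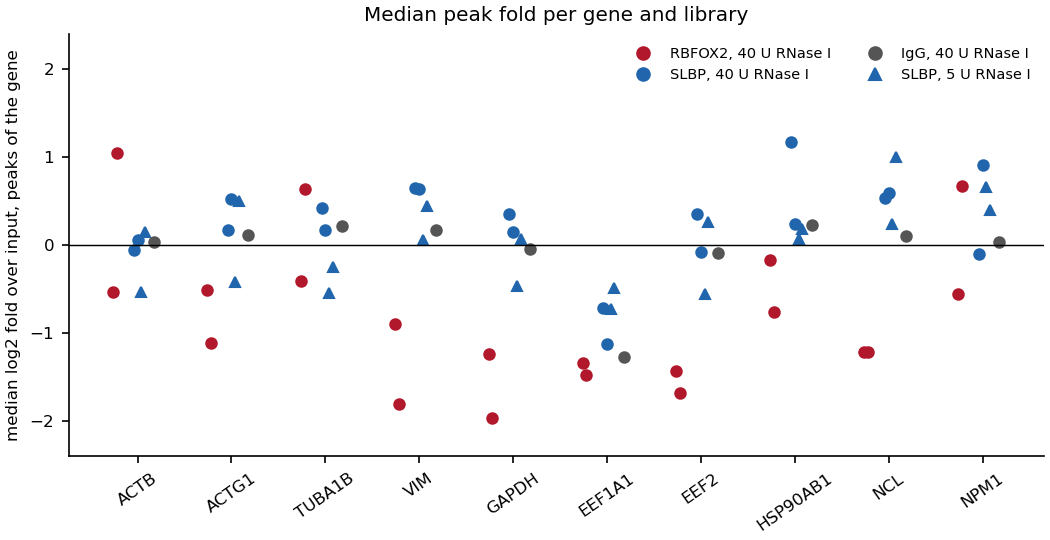
Median log2 fold over input of the peaks of each gene (vertical axis), 1 point per library: RBFOX2, SLBP at 40 U, SLBP at 5 U and IgG. Both RBFOX2 points lie below all SLBP points in 7 of the 10 genes, and EEF1A1 is below 0 in every library.

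The lists were then set against each other at nucleotides where every one of them had a peak. All 7 lists covered 1082 nt of the 10 genes, in 39 stretches, of which EEF1A1 held 9 and NCL 8. The mean log2 fold over these nucleotides was −1.16 and −1.71 in RBFOX2, 0.12, −0.03, −0.54 and −0.22 in SLBP and −0.10 in IgG. RBFOX2 lay below the others (−1.43 ± 0.38, n = 2, against −0.17 ± 0.29, n = 4; SD; exact permutation p = 0.133). Both RBFOX2 libraries were below input at 37 of the 39 stretches, and both exceptions lay in TUBA1B near its 3′ edge. By nucleotide, both were below input at 97.6% of the 1082 nt, beside 84.9% of the 43473 nt that all 7 lists cover at large.

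The same held gene by gene and in the lists at large. At nucleotides covered in all 7 lists RBFOX2 lay below all SLBP values in 9 of 10 genes, ACTB, TUBA1B and NPM1 included; HSP90AB1, with 28 such nt, overlapped (exact permutation p = 0.4, n = 2 and 4). Both RBFOX2 libraries were above input at 9 of the 1082 nt (0.832%), where 7.52% was the share over all 43473 nt of the genome that the 7 lists cover. Over those 43473 nt RBFOX2 had −1.30 ± 0.38 (SD, n = 2), SLBP 0.09 ± 0.26 (SD, n = 4) and IgG 0.04. Both RBFOX2 values lay below all SLBP values there too. The share of loci with this order at such nucleotides was not counted, so 9 of 10 has no background beside it. The 10 genes minus the shared nucleotides at large was −0.14 in RBFOX2 and −0.25 in SLBP.

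Nucleotides that the RBFOX2 lists alone covered differed in fold between the genes. There were 1262 of them, with mean log2 folds of 1.71 and 1.61 in replicates 1 and 2, and 870 (68.9%) were above input in both. Over the whole lists such nucleotides had 2.15 and 2.12, and 84.9% were above input in both, so the 10 genes were under the background. RBFOX2 coverage and RBFOX2 fold come from the same reads, and the part of this choice of nucleotides in their folds was not tested.

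ACTB held 399 of these nucleotides at 3.07 and 3.34, with 94.5% above input in both, and ACTG1 held 263 at 2.46 and 1.80. EEF2 (44 nt, 2.20 and 3.74), NPM1 (33 nt, 2.14 and 1.77), HSP90AB1 (96 nt, 1.69 and 1.55) and TUBA1B (126 nt, 1.23 and 1.18) were above input as well. NCL was not: its 157 nt stood at −0.83 and −1.20, with 0% above input in both. VIM (66 nt, −0.66 and −1.22) and GAPDH (40 nt, −0.62 and −0.29) were also low, and EEF1A1 (38 nt) stood at 0.02 and −0.29. Nucleotides covered by RBFOX2 alone were therefore above input in 6 of the 10 genes, and below it in both replicates in 3. The shares of joined loci with these signs were not counted, so the counts have no background beside them.

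**Figure D5:**
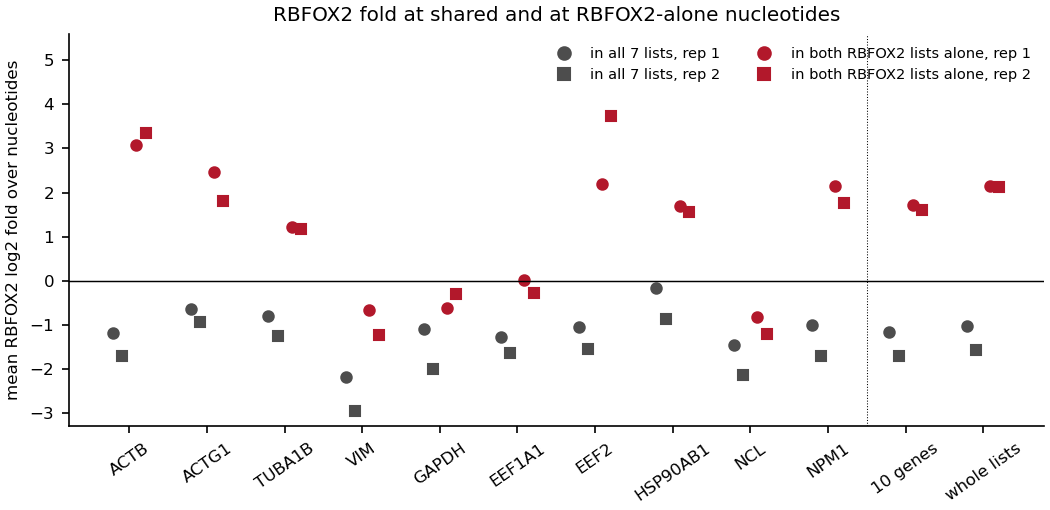
Mean RBFOX2 log2 fold over input at nucleotides covered in all 7 lists and at nucleotides covered in both RBFOX2 lists alone, by gene, for the 10 genes together and for the whole lists; circles are replicate 1 and squares replicate 2. Values at shared nucleotides are below 0 in every gene, and values at RBFOX2-alone nucleotides reach 3.07 and 3.34 in ACTB and stay below 0 in NCL, VIM and GAPDH.

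Nucleotides with SLBP peaks in all 4 libraries and no RBFOX2 peak were not raised in fold. They numbered 157, of which ACTB held 124, and had mean log2 folds of −0.04, 0.24, −0.25 and 0.37 in SLBP replicates 1 to 4. Over the whole lists such nucleotides, 7692 in all, had 2.85, 2.96, 2.02 and 2.58. No SLBP peak of the 10 genes was enriched, and the 3 with a log2 fold of at least 3 (in ACTG1 and NPM1, above) had −log10 p values of 2.21 to 2.45.

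Within SLBP, the RNase I amount was compared over the 10 genes. The median log2 fold was 0.29 ± 0.16 (SD, n = 2) at 40 U and −0.12 ± 0.32 (SD, n = 2) at 5 U (exact permutation p = 0.333, the smallest possible). With the list medians taken off the difference of 0.41 turned to −0.19. The median peak width was 35.5 ± 2.12 nt at 40 U and 33 ± 1.41 nt at 5 U (SD, n = 2 each; exact permutation p = 0.667), and with touching peaks merged the difference of 2.5 nt turned to −0.25 nt. Peaks covered 5.72% ± 0.246 of the window nucleotides at 40 U and 4.62% ± 0.270 at 5 U, and the genes held 0.550% ± 0.0470 and 0.793% ± 0.247 of the lists (SD, n = 2 each; exact permutation p = 0.333 for both). Neither measure overlapped between the amounts, and the 40 U lists were also the longer ones. With 2 libraries against 2, no value could have passed 0.05.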

How the data were processed

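The data were 7 peak lists from 293T cells (2 RBFOX2, 4 SLBP, 1 IgG) of a series of 24 samples; the 7 inputs entered only through the folds, and 10 further RBFOX2 samples of an RNase I series were not analysed here. Each deposited list gives intervals with strand, the authors' log2 fold of precipitate over paired input, and the −log10 of its p-value; there is no header, and the units were read from the values. The deposited −log10 p ran from 0 to 400 and was 0 at every peak with a negative fold. Reads were mapped to hg19 with cutadapt, STAR, GATK, Picard and SAMtools among the tools, per the submitters' processing notes; for versions, peak caller and the handling of reads that match several places, nothing is given in the sources used here. The last point bears on these genes, several of which have near-identical relatives or processed pseudogenes; its effect was not tested. Read depth is unknown, so a single fold has no interval.

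Peaks of 1 list did not overlap but many touched. Peaks sharing at least 1 nt with a gene's window on its strand were members; medians over peaks, shares and means over nucleotides were computed per library with Python 3.11.15, pandas 2.3.3, numpy 2.4.6 and scipy 1.17.1. Window edges were set for this work and come from no hg19 annotation; all 10 symbols were found in the GRCh38.p14 gene table, where NCL is 10954 nt long against a window of 9901 nt and HSP90AB1 is 7690 nt against 6901 nt. Libraries were compared with exact two-sided permutation tests over libraries. The code was tested on simulated lists. All 10 genes were named; single peaks were named when enriched, highest in a gene and library, or covered in all 7 lists, and stretches above input in both RBFOX2 libraries were added after the values were seen. The members and lists were chosen with earlier results of these data known. Alternatives were other limits, overlaps, weights and scalings, merged peaks, left-out libraries and a replicate block.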

Additional observations from a re-analysis of the deposited data

Results flagged for a closer look

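The HSP90AB1 median of SLBP replicate 1, 1.17, stood apart from those of the other 3 SLBP libraries: its gap to the nearest was 0.852 of the group's whole range, past Dixon's critical value for 4 libraries. It was the only such value among 16 groups of SLBP values checked, and chance marks about 1 group in 20.

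In 3 genes every RBFOX2 median lay below input and every SLBP median above it. RBFOX2 minus SLBP was −0.88 in HSP90AB1, −1.81 in NCL and −1.80 in VIM. Beyond the exact permutation test over libraries, which cannot go below p = 0.133, the difference in direction was not tested. The share of all joined loci with such signs was not counted. With peaks weighted by width, the signs held in VIM but not in the others. HSP90AB1 then stood at 0.07 and 0.33 in RBFOX2. NCL stood at 0.35, −0.05, −0.49 and −0.10 in SLBP replicates 1 to 4.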

How the results depend on the processing

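Over all alternatives, 75 values that answer a comparison kept their direction with no large change in a count, 3 counts moved and 3 values reversed; of single genes, 83 kept their direction and 7 reversed. Over nucleotides covered in all 7 lists, an alternative chosen after seeing the data, the fold difference relative to the lists was 0.11 in place of −0.73, and RBFOX2 minus SLBP was −1.59 in ACTB and −0.85 in TUBA1B. With list medians taken off, the SLBP 40 U minus 5 U fold was −0.19 and 4 genes had RBFOX2 lower. Merging touching peaks gave a 40 U minus 5 U width of −0.25 nt. Enriched RBFOX2 peaks averaged 3 with a log2 fold of at least 4, and 3 without ACTB. Weighting by width gave 0.12 in ACTG1 and 0.18 in NPM1. The cause was not tested.

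Leaving out 1 library gave a fold difference of −0.95 to −0.51, a difference in the share below input of 27.5 to 39.4 percentage points, 8 to 11 more enriched peaks, a list share of −0.491 to −0.340, a coverage of 3.47 to 3.96, 40 U minus 5 U differences of 0.19 to 0.64 in fold and 1 to 4 nt in width, and 7 to 8 genes with RBFOX2 lower. ACTB ranged from −0.44 (without RBFOX2 replicate 2) to 1.14, TUBA1B from −0.35 (without RBFOX2 replicate 2) to 0.69, and NPM1 from −1.03 to 0.20 (without RBFOX2 replicate 1). With a replicate block (replicates 1 and 2 paired) the differences were −0.64, 40.6, 9.5, −0.318 and 3.17 in the order above; with 2 pairs the exact permutation p cannot go below 0.5, and the labels do not say that the numbers pair libraries. Unknown read depth limits every fold.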

Other observations

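With each window cut into 3 equal parts, the RBFOX2 medians of both replicates were highest in the 5′ part in TUBA1B, HSP90AB1 and GAPDH, as in ACTB. In TUBA1B the RBFOX2 medians of replicates 1 and 2 were 1.00 and 1.44 in the 5′ part, −1.17 and −0.30 in the middle part and −0.49 and −1.16 in the 3′ part. In HSP90AB1 they were 1.56 and 2.28, then −0.38 and −1.04, then −0.37 and −0.81, over 3, 1 and 6 to 7 peaks. In GAPDH, with every such median below input, they were −0.96 and −0.74, then −1.45 and −2.14, then −1.23 and −2.04. Within the 5′ part, the stretches covered in all 7 lists lay below input, with −0.86 and −1.50 in TUBA1B and −0.17 and −0.86 in HSP90AB1. ACTG1 did not show this order, with −0.23 and −1.18 in the 5′ part and −0.54 and −1.13 in the middle part. Other lists shared part of the order. The 5′ part was also highest in GAPDH in every SLBP list and in IgG, and in ACTB in SLBP replicates 1 to 3. In TUBA1B this was so in SLBP replicate 1 only, and in HSP90AB1 in SLBP replicate 2 and IgG only. In the 3′ part of EEF1A1 the only peaks of any list were 1 in each RBFOX2 library, at 0.87 and 3.07, and they did not overlap each other. These are values for a few peaks each, with no test.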
